A study of Mus musculus with 10 samples.

Results

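Genes known to respond to the transcriptional co-activator YAP were followed through sorted skeletal cells of the mouse hind limb. The 5 members, Ctgf, Cyr61, Ankrd1, Amotl2 and Ajuba, were chosen by name, and all 5 were among the 29183 genes listed for both lineages (50508 genes were listed for the Lepr lineage). Cells came from the hind limbs of C57BL/6 mice in which a red fluorescent protein, TdTomato, labelled either the Grem1 lineage (Grem1-TdT) or the Lepr lineage (Lepr-TdT). Grem1-TdT mice received tamoxifen in their chow from 5 to 6 weeks of age for 2 weeks, and the Lepr-TdT mice were matched for age, with no tamoxifen stated for them. The Grem1 label was made by the inducible Grem1-creERT and therefore marks cells that expressed Grem1 when tamoxifen was given, together with their progeny. Grem1 lineage cells came from excised articular cartilage (AC) and growth plate (GP), and the labels do not say which of these a plate held, although cells were allocated to plates at random. Lepr lineage cells came from whole bones broken up with a mortar and were sorted for TdTomato after removal of CD45+, Ter119+ and CD31+ cells, a gate that the Grem1 lineage cells did not pass through. Tissue, enzyme, gate, plate, stated tamoxifen and the kind of Cre (inducible for Grem1, constitutive for Lepr) therefore differed together with the lineage. Their parts in a difference between lineages cannot be told apart.

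Single cells were sequenced in 96-well plates, and each transcript was counted by its unique molecular identifier (UMI). Of 768 Grem1 lineage wells on 8 plates, 684 had at least 350 detected genes and were kept, as were 160 of 162 Lepr lineage wells on 2 plates. Detected genes were counted among the genes listed for each lineage, 29183 for Grem1 and 50508 for Lepr. The same minimum was therefore easier to reach in the Lepr lineage. Kept cells of a plate held 133289 to 179071 UMIs in the Grem1 lineage and 158749 and 145484 in the Lepr lineage. Of the Lepr lineage UMIs, 64310 and 59981 lay in the shared genes. Kept cells held a median of 1472 UMIs in the Grem1 lineage and 1222 in the Lepr lineage, of which a median of 505 lay in the shared genes, so levels of Lepr lineage cells rested on fewer UMIs. The same 96 well barcodes were used on every plate, and no pair of cells had identical counts. Grem1 lineage cells were split into 414 articular-like cells, with more UMIs of Clu, Cilp and 1500015O10Rik together than of Cnmd, and 270 Cnmd-rich cells. Levels are given as CPM, UMI counts scaled to the same total over the shared genes (10000 CPM is a share of 1%), with exact Poisson intervals that cover counting error only. Chondrocyte markers were high in both Grem1 lineage groups (summed level 94900 to 180200 CPM per plate) and marrow stromal markers were near 0 there (at most 110 CPM). On the Lepr lineage plates marrow stromal markers summed to 25310 and 35440 CPM. Chondrocyte markers summed there to 6204 CPM on plate 1 and 66.7 CPM on plate 2, with Cytl1 (360 UMIs) found in 37.5% of cells. Osteoblast markers summed to 8957 CPM on plate 1 and 884 CPM on plate 2.

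YAP and its relative TAZ carry mechanical and cell-contact signals to the nucleus, where they act through the DNA-binding TEAD factors. The Hippo kinases hold them in the cytoplasm, as in crowded cells, and tension of the actin cytoskeleton favours their entry into the nucleus. Ctgf and Cyr61 encode secreted matrix proteins of the CCN family, Ctgf being known for its role in cartilage and growth plate development and Cyr61 for adhesion and vessel growth. Ankrd1 encodes a muscle-enriched ankyrin repeat protein that is widely used as a YAP readout. Amotl2 encodes an angiomotin that binds YAP and holds it outside the nucleus, and Ajuba encodes a LIM-domain scaffold that restrains the Hippo kinase LATS, so both are targets that also act within the pathway.

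In the GRCm38 annotation Ctgf is listed as Ccn2 at chr10:24595442-24598683 on the plus strand, and Cyr61 as Ccn1 at chr3:145646976-145649981 on the minus strand. Amotl2 lies at chr9:102716672-102733418 (plus), Ajuba at chr14:54567472-54577558 (minus) and Ankrd1 at chr19:36111961-36120099 (minus). Ctgf overlaps the antisense RNA Gm15270, which had 41 UMIs beside 2984 of Ctgf in Grem1 lineage cells and 0 beside 20 in Lepr lineage cells. The other 4 members overlapped no annotated gene. RefSeq promoter sequences (GRCm38.p6, 250 bases before to 50 after the start site) were matched for 4 members, and none was available for Ctgf. Each of these 4 windows held the core TEAD motif GGAATG on 1 of the strands (CATTCC on the other), which 14.7% of the 32851 promoters held. Ankrd1 and Ajuba held it at 2 places, as did 1.36% of promoters. The 6 matches are shown with 12 bases on each side, since they are the sequence feature that these 4 members share. The motif is in capitals, and each sequence is read 5′ to 3′ on the gene's strand.
Cyr61, 103 bases before the start site, chr3:145650071-145650100 (minus): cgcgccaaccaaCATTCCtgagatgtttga
Ankrd1, 210 bases before, chr19:36120037-36120066 (minus): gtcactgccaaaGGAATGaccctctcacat
Ankrd1, 123 bases before, chr19:36119950-36119979 (minus): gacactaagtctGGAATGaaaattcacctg
Amotl2, 65 bases before, chr9:102717727-102717756 (plus): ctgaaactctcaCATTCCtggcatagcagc
Ajuba, 186 bases before, chr14:54577830-54577859 (minus): cgttgatggataCATTCCacagtgcccctc
Ajuba, 164 bases before, chr14:54577808-54577837 (minus): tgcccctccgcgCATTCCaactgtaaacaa
In GENCODE M21, which lists transcripts that start further upstream, the Ankrd1 and Amotl2 matches fell in untranslated exons of such transcripts, and the Cyr61 and Ajuba matches fell outside any gene. A TATAA sequence on the gene's strand was found in the Cyr61 and Ankrd1 windows (17.5% of promoters), and neither TGANTCA, the AP-1 motif (7.81% of promoters), nor a CArG box, the motif of SRF (1.63%, searched in the form that reads alike on both strands), was found in any of the 4. A match describes these letters and does not show that a factor bound there.

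The 5 members were found at very different depths. Cyr61 had 4503 UMIs and Ctgf 2984 in Grem1 lineage cells, Amotl2 89, Ajuba 9 and Ankrd1 0. Cyr61 was found in 322 of 414 articular-like cells (77.8%, exact 95% interval 73.5 to 81.7) and in 245 of 270 Cnmd-rich cells (90.7%, 86.6 to 93.9). Ctgf was found in 306 articular-like cells (73.9%, 69.4 to 78.1) and in 187 Cnmd-rich cells (69.3%, 63.4 to 74.7). In the Lepr lineage Cyr61 was found in 43 of 160 cells (26.9%, 20.2 to 34.5) and Ctgf in 9 (5.63%, 2.60 to 10.4). Since median depths were 2218 UMIs in Cnmd-rich, 1217 in articular-like and 505 in Lepr lineage cells, each cell was also thinned to 529 UMIs, which left out 1 Cnmd-rich, 1 articular-like and 83 Lepr lineage cells. The thinned shares were 58.8% of articular-like, 46.1% of Cnmd-rich and 5.19% of Lepr lineage cells for Ctgf, and 63.0%, 72.9% and 24.7% for Cyr61. For Ctgf the intervals of the thinned shares were 53.9 to 63.6 in articular-like, 40.03 to 52.3 in Cnmd-rich and 1.43 to 12.8 in Lepr lineage cells. For Cyr61 they were 58.1 to 67.6, 67.1 to 78.1 and 15.6 to 35.8. These intervals treat cells as separate counts and leave out the spread between plates, so a gap between them is no test between groups. Before thinning, Ctgf was found in 27 of 52 articular-like cells on plate 1 and in 41 of 43 on plate 8.

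**Figure D1:**
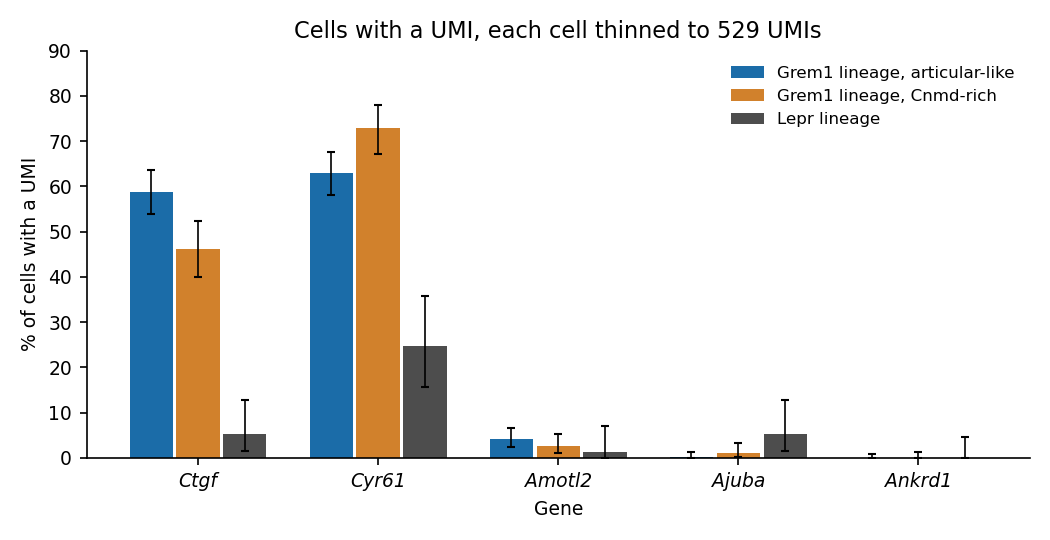
Share of cells with at least 1 UMI of each member (vertical axis, % of cells) after thinning every cell to 529 UMIs, in 413 articular-like, 269 Cnmd-rich and 77 Lepr lineage cells; error bars are exact 95% binomial intervals. Ctgf and Cyr61 bars of both Grem1 lineage groups stand well above the Lepr lineage bars, and those of Amotl2, Ajuba and Ankrd1 stay at or below 5.19%.

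UMIs of the secreted pair were unevenly spread over cells. The tenth of articular-like cells with most Ctgf (42 cells) held 42.5% of its UMIs, and the corresponding 27 Cnmd-rich cells held 42.9%. For Cyr61 the shares were 39.5% and 30.9%. The highest cell had 37 Ctgf UMIs or 60 Cyr61 UMIs, against medians of 2 Ctgf UMIs in both groups and of 2 (articular-like) or 8 (Cnmd-rich) Cyr61 UMIs. In the Lepr lineage 11 of the 20 Ctgf UMIs came from 1 cell on plate 1 and 22 of the 104 Cyr61 UMIs from 1 cell on plate 2.

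Ctgf fell into low and high plates. In articular-like cells its level was 801, 1361 and 1343 CPM on plates 1, 2 and 4, and 4981, 3924, 4209, 5051 and 4414 CPM on plates 5 to 9. In Cnmd-rich cells it was 487, 566 and 669 CPM on plates 1, 2 and 4, and 3337, 3203, 2150, 2926 and 1280 CPM on plates 5 to 9. Every value of plates 5 to 9 lay above every value of plates 1, 2 and 4 of the same cell group. The counting intervals of these sets did not touch either (the highest upper bound on plates 1, 2 and 4 was 1698 CPM in articular-like cells and 911 CPM in Cnmd-rich cells, and the lowest lower bound on plates 5 to 9 was 3400 and 1074 CPM). Over all 8 plates the mean was 3261 ± 1780 CPM (SD, n = 8) in articular-like and 1827 ± 1225 CPM (SD, n = 8) in Cnmd-rich cells.

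Cyr61 did not follow Ctgf across plates. In Cnmd-rich cells its level stayed between 3910 and 5152 CPM on all 8 plates (4483 ± 478 CPM, SD, n = 8), with no gap between the plate sets. In articular-like cells it was 3677, 3646 and 4906 CPM on plates 1, 2 and 4, and lower, at 2605, 1425, 2334, 2053 and 2663 CPM, on plates 5 to 9. The 2 CCN genes therefore lay in opposite order in articular-like cells: Ctgf was the higher on plates 5 to 9 and Cyr61 the higher on plates 1, 2 and 4. Among the 1071 genes tested between the cell groups, the share whose plates 5 to 9 lay all above or all below plates 1, 2 and 4 was 15.1% in articular-like and 14.8% in Cnmd-rich cells with TMM scaling, and 18.0% and 20.6% by total UMIs, the scale of the levels above. The plate sets were noticed in the values of Actb and Ctgf themselves, so no test was made between them and the labels give no batch that separates them.

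**Figure D2:**
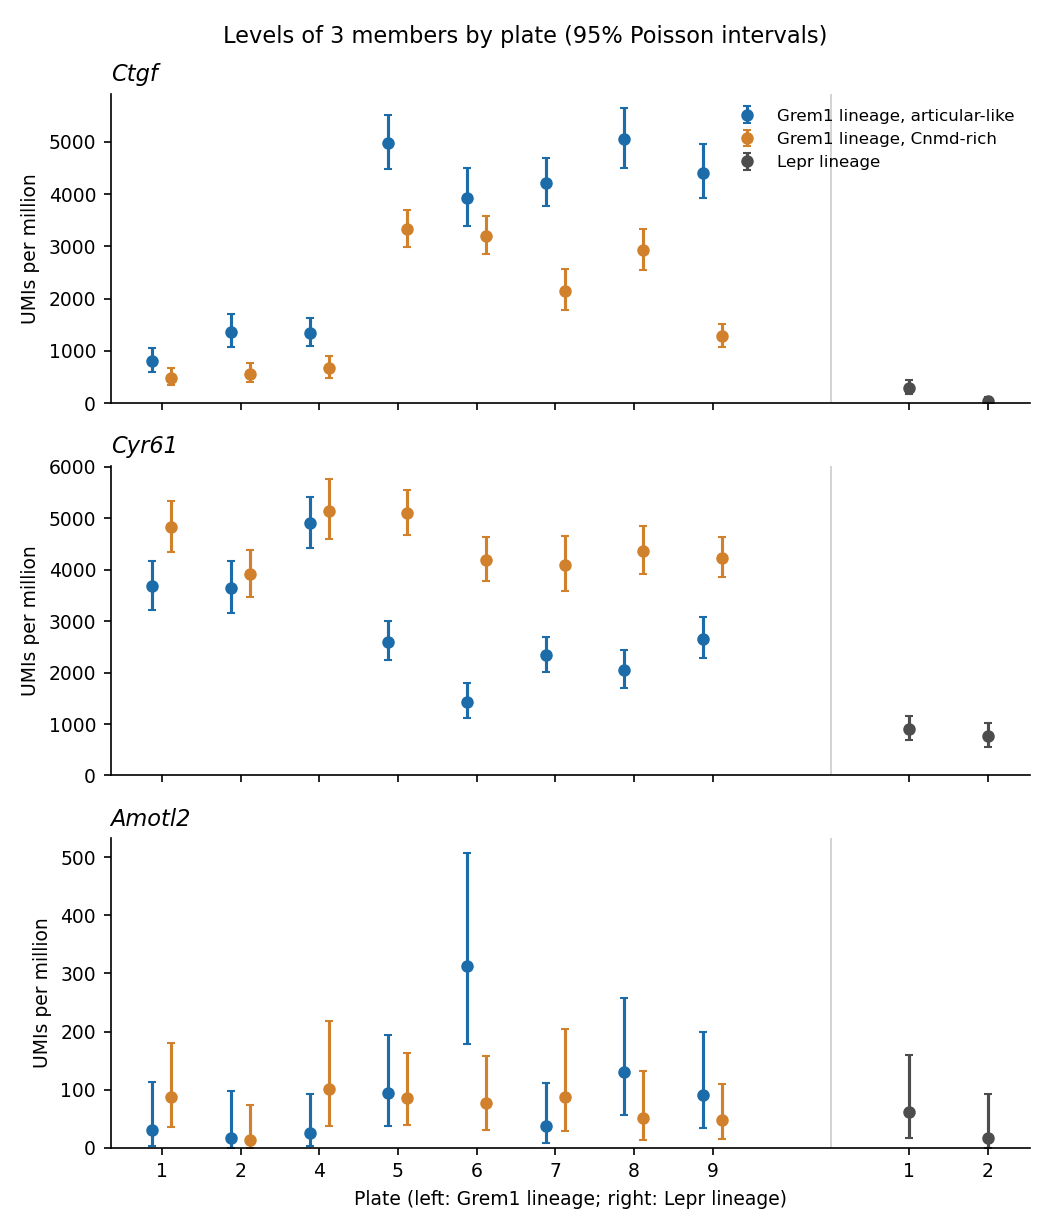
Levels of Ctgf, Cyr61 and Amotl2 (vertical axes, CPM) by plate (horizontal axis) in articular-like, Cnmd-rich and Lepr lineage cells; points are plate sums and bars exact 95% Poisson intervals. Ctgf is low on plates 1, 2 and 4 (487 to 1361 CPM) and high on plates 5 to 9 in both cell groups, Cyr61 falls only in articular-like cells, and Amotl2 has a single high point of 312 CPM.

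Actb, which encodes the main cytoskeletal actin and is itself a target of SRF, divided the plates in the same way as Ctgf. It took 0.624% to 0.893% of the UMIs of articular-like cells on plates 1, 2 and 4 and 2.21% to 3.37% on plates 5 to 9. In Cnmd-rich cells the ranges were 0.812% to 0.853% and 3.73% to 5.53%. Within plates 5 to 9 the plate with most Actb, plate 8, had the highest Ctgf in articular-like cells by total UMIs. Its counting interval overlapped that of plate 5 (4505 to 5646 and 4487 to 5515 CPM). With TMM scaling plate 5 was the higher there (5852 against 5595 CPM). In Cnmd-rich cells plate 5 had the lowest Actb share of these plates and the highest Ctgf. Cnmd-rich cells had the higher Actb share on 7 of 8 plates and the lower Ctgf level on all 8. Since the plates formed separate ranges of Actb share with fewer than 6 plates in each, no correlation of a member with Actb share is given. Depth moved with the plate sets too: the median cell had 1243 to 1322 UMIs on plates 1, 2 and 4 and 1472 to 1612 on plates 5 to 9. Summed levels of immediate early genes were 13860 to 18600 CPM on plates 1, 2 and 4 and 26410 to 34660 CPM on plates 5 to 9 in Cnmd-rich cells, and overlapped in articular-like cells (13720 to 22060 and 18190 to 23950 CPM). Osteoblast markers summed to 142 to 801 CPM on plates 1, 2 and 4 and 781 to 32320 CPM on plates 5 to 9 in articular-like cells, and to 519 to 4125 and 2482 to 17850 CPM in Cnmd-rich cells, overlapping in both. The part of depth and of these genes in the Ctgf levels was not tested.

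**Figure D3:**
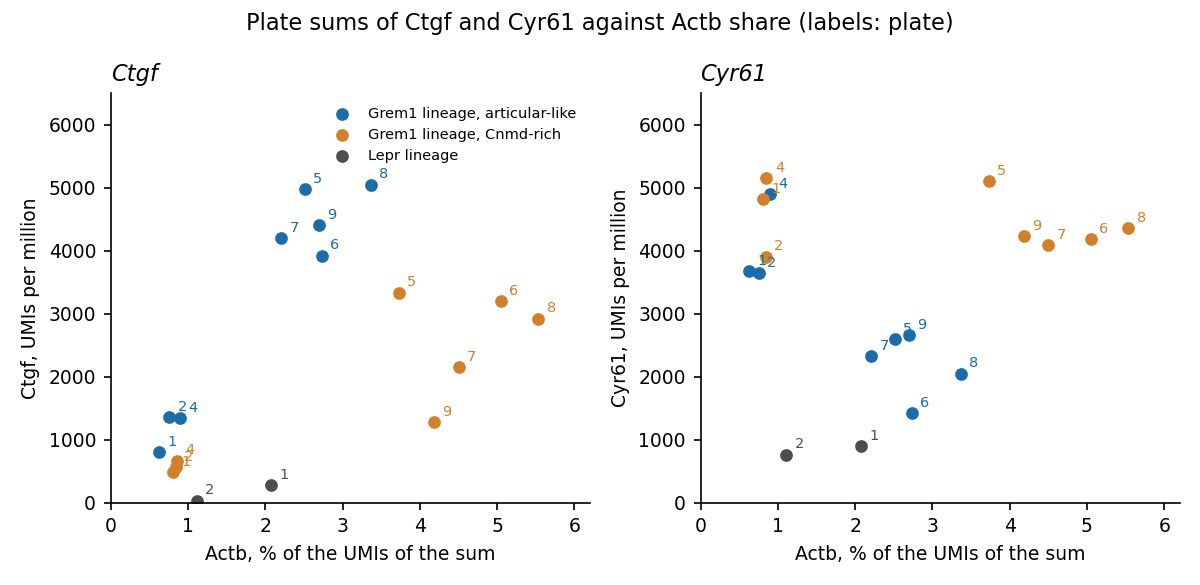
Level of Ctgf (left) and Cyr61 (right), in CPM, against the share of UMIs from Actb (horizontal axis, %), with 1 point for each plate and cell group, Lepr lineage plates included, and the plate number beside it. Grem1 lineage plates 1, 2 and 4 gather at 0.624% to 0.893% Actb with low Ctgf, plates 5 to 9 lie at 2.21% or more with higher Ctgf, and Cyr61 of Cnmd-rich cells spans 3910 to 5152 CPM at one end and 4090 to 5106 CPM at the other.

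The genes whose plate pattern was most like Ctgf, by Pearson's r of log2 CPM over the 16 sums of plate and cell group among 2472 genes, were Alkbh5 (r = 0.94), Egr1 (r = 0.93) and Cdkn1b (r = 0.91). Alkbh5 encodes an RNA demethylase, Egr1 an immediate early transcription factor and Cdkn1b the cell cycle inhibitor p27. Egr1 kept r = 0.92 over the 6 sums of plates 1, 2 and 4 and r = 0.84 over the 10 sums of plates 5 to 9. For Cyr61 the nearest were the gene models Gm14747 (r = 0.84) and Gm15355 (r = 0.83) and Dhrs3 (r = 0.83), which encodes a retinal reductase. Cyr61 stood 2214th of the 2472 in likeness to Ctgf (r = -0.44). The 16 sums come from 8 plates in separate ranges, so these r describe the libraries and carry no p.

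Amotl2 was near the limit of detection. It had 45 UMIs in 38 articular-like cells, 44 in 40 Cnmd-rich cells and 5 in 5 Lepr lineage cells. Its articular-like level was 17.5 to 130 CPM on 7 plates and 312 CPM on plate 6 (95% interval 178 to 507), where 13 of 43 cells had a UMI. In Cnmd-rich cells it was 13.2 to 100 CPM, and plate 6 was not high there (76.5 CPM). Ajuba was rarer still. Its 9 Grem1 lineage UMIs were in 3 articular-like and 6 Cnmd-rich cells, 1 UMI each.

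Ankrd1 was not detected in any of the 930 wells of both lineages. No UMI among 1306434 of the kept cells allows a level of up to 2.30 CPM, and 0 of 844 cells allows a share of cells with a UMI of up to 0.355%. The limits were 5.67 CPM in articular-like, 4.60 CPM in Cnmd-rich and 24.1 CPM in Lepr lineage cells. Ankrd1 was listed in both tables, and its promoter window held 2 of the 6 TEAD motifs shown above.

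Against the Lepr lineage, Grem1 lineage cells had far more Ctgf and Cyr61. Ctgf was at 280 CPM (18 UMIs) and 33.3 CPM (2 UMIs) on the Lepr lineage plates and at 627 to 4021 CPM on the 8 Grem1 lineage plates. Lepr lineage plate 1, with the higher Ctgf, also had the higher sums of chondrocyte and osteoblast markers. Their part in the Ctgf level of that plate was not tested. Cyr61 was at 902 and 767 CPM on the Lepr lineage plates and at 3075 to 5013 CPM on the Grem1 lineage plates. For both genes the lineages did not overlap, and the share of all genes without overlap between lineages is not given here. In edgeR's quasi-likelihood test with TMM scaling and Benjamini-Hochberg adjustment, Ctgf was lower in the Lepr lineage by a log2 fold change of -4.47 (SE 0.97, adjusted p = 0.00251, 22.1-fold) and Cyr61 by -2.65 (SE 0.32, adjusted p = 1.6e-05, 6.26-fold). In this comparison 28.9% of the 2944 tested genes were called, and 2 of the 3 members tested. Of 851 calls, 358 were higher in the Lepr lineage with TMM scaling, and of 996 calls 681 were higher with scaling by total UMIs, which raised the median of all genes from -0.11 to 0.35. Both genes stayed lower there (Ctgf -3.95, adjusted p = 0.00258, and Cyr61 -2.19, adjusted p = 0.000101).

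The size of the Ctgf difference depended on the plates. It was -2.73 against plates 1, 2 and 4 alone and -4.95 against plates 5 to 9 alone, given without a test since the sets were noticed in Ctgf itself. Without Lepr lineage plate 1, which held 18 of the 20 UMIs, it was -6.79 (edgeR adjusted p = 0.00677), and without plate 2 it was -3.70 (adjusted p = 0.0427). Each of these fits left 1 Lepr lineage plate, which was assumed to vary like the Grem1 lineage plates. Cyr61 moved little, from -2.88 to -2.58 over the 10 fits that each left out a plate. Exact two-sided permutation tests over the 10 plates gave p = 0.0222 for Ctgf and for Cyr61, the smallest the design allows, and 0.0444 after adjustment over 4 members. Plates were the replicates throughout, and as nothing says which mice a plate came from, p-values measure the spread between plates only.

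Amotl2 and Ajuba did not pass the test between lineages. Amotl2 had a log2 fold change of -1.36 (SE 0.81, edgeR adjusted p = 0.22, approximate 95% interval -2.94 to 0.23). Ajuba had 8 UMIs among 124291 in the Lepr lineage (64.4 CPM) and 9 among 1182143 in the Grem1 lineage (7.61 CPM), with 3 of the 8 in 1 cell. It was too sparse for the filtered fit. Without the filter its log2 fold change was 2.25 (SE 0.96, edgeR adjusted p = 0.155), and the exact permutation p over plates was 0.0444 (0.0593 adjusted), so its higher level in the Lepr lineage did not pass the threshold.

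YAP/TAZ targets that passed the filter on low counts were more often lower than higher in the Lepr lineage. Of all tested genes 16.7% were called lower and 12.2% higher. Of 23 YAP/TAZ target genes, 15 were listed for both lineages and 8 passed the filter. Of these 8, 5 were lower and 0 higher (median log2 fold change -2.84, against -0.11 over all genes). Crim1 and F3 had 3 and 4 UMIs in the Lepr lineage against 253 and 233, so they passed the filter through the Grem1 lineage sums. Ajuba, at 2.25 without the filter, was not among the 8. The counts and the median therefore do not describe the targets as a whole. The 8 include Ctgf, Cyr61 and Amotl2, so 3 of the 5 others were lower, namely Ccdc80, a matrix protein, at 123 ± 65.5 (SD, n = 2) against 2125 ± 525.7 TMM-scaled CPM (SD, n = 8) (log2 fold change -4.09, SE 0.45, edgeR adjusted p = 7.42e-06), Crim1, a membrane-bound BMP regulator (-3.56, SE 0.63, adjusted p = 0.000534), and F3, tissue factor (-3.04, SE 0.91, adjusted p = 0.0194). Of 6 Hippo pathway components tested 0 passed by edgeR. Their log2 fold changes ran from Amotl2 at -1.36 to Fat1, a protocadherin upstream of the kinases, at 0.49. Of 10 actin and SRF target genes tested, 4 were higher in the Lepr lineage and 0 lower (against the same 12.2% and 16.7%), among them Cnn2 (3.63, SE 0.48, adjusted p = 3.87e-05), Flna (2.06, SE 0.45, adjusted p = 0.0026) and Cald1 (1.97, SE 0.40, adjusted p = 0.00156), which encode actin-binding proteins. Actb itself was at -1.26 (SE 0.75, edgeR adjusted p = 0.222). Its direction depended on the plates, at 0.69 against Grem1 lineage plates 1, 2 and 4 alone and -1.77 against plates 5 to 9 alone. These values are given without a test, since the sets were noticed in Actb itself. The median of the 10 was 1.03, against -0.11 over all genes.

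Other lists moved with the lineage. All 6 immediate early genes tested were lower in the Lepr lineage (median -2.83, against 16.7% of all genes called lower), including Btg2 (-4.22) and Egr1 (-3.20), and their summed level was 3901 and 5240 CPM there against 13720 to 34660 CPM in the Grem1 lineage sums. Blood markers summed to 20340 and 29870 CPM on the Lepr lineage plates, with 7 of 7 detected, against 0 to 5250 CPM in Grem1 lineage sums, and the neutrophil gene Camp made up most of it (2355 UMIs, found in 98.8% of cells). Endothelial markers were near 0 in all groups (at most 100 CPM, with Flt1, Egfl7 and Cldn5 at 0). The part of these in the Ctgf and Cyr61 differences was not tested. In sums such as these, fewer cells with a transcript and less of it per cell cannot be told apart by the fold alone.

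Pathway genes beyond the shared part of the table were read in the Lepr lineage only. The co-activators were sparse, with 3 UMIs of Yap1 and 7 of Wwtr1 (TAZ) in 160 cells, as were their partners Tead1 (10 UMIs), Tead2 (5), Tead3 (3) and Tead4 (0). Of 21 such Hippo components 18 were detected, the highest being the kinase adaptor Mob1a with 18 UMIs. The targets Igfbp3, an IGF-binding protein, and Rbms3, an RNA-binding protein, reached 52 and 43 UMIs, more than Ctgf. Of the other CCN genes Wisp2 had 67 UMIs in 25.6% of cells, Nov 8, Wisp1 6 and Wisp3 0. These genes were not analysed here in Grem1 lineage cells.

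Within the Grem1 lineage Ctgf was higher in articular-like than in Cnmd-rich cells on all 8 plates. On TMM-scaled CPM the ratio was 2.12, 3.15 and 2.51 on plates 1, 2 and 4 and 1.91, 1.58, 2.64, 2.03 and 4.44 on plates 5 to 9. The smallest ratio was on plate 6 and the largest on plate 9, and the ranges of both plate sets overlapped. The mean log2 ratio was 1.28 ± 0.47 (SD, n = 8), with an exact two-sided sign-flip p of 0.00781, the smallest that 8 plates allow, and 0.0703 after adjustment over 9 tests of this kind. Scaled by total UMIs it was 0.92 ± 0.45 (SD, n = 8), also above 0 on all 8 plates (exact p = 0.00781, 0.0352 adjusted).

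In the fit across all genes, without plate in the model, Ctgf missed the threshold (log2 fold change 1.18, SE 0.48, edgeR adjusted p = 0.0571), while 41.0% of the 1071 tested genes were called (224 higher in articular-like cells and 215 lower). Within plates 1, 2 and 4 alone the log2 fold change was 1.38 and within plates 5 to 9 alone 1.12, values that carry no test because choosing the sets on Ctgf narrowed its spread within them. With the plate as a replicate block it gave 1.27 (SE 0.16, edgeR adjusted p = 1.41e-05), with 46.5% of genes called. The cell groups of a plate shared its library, and their deviations were correlated on every plate.

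Cyr61 was lower in articular-like cells on plates 5 to 9, and on plates 1, 2 and 4 its side depended on the scaling. Its TMM-scaled ratio was 0.985, 1.23 and 1.20 on plates 1, 2 and 4, and 0.652, 0.441, 0.773, 0.555 and 0.813 on plates 5 to 9. By total UMIs it was 0.763, 0.933 and 0.952 on plates 1, 2 and 4 and lower still on plates 5 to 9. The share of all genes whose ratios separate these plate sets is not given here. The mean log2 ratio with TMM scaling was -0.35 ± 0.52 (SD, n = 8), with 6 of the 8 ratios below 0 (sign-flip p = 0.0859, exact and two-sided, 0.258 adjusted over 9 tests), and by total UMIs -0.70 ± 0.51 (SD, n = 8), below 0 on all 8 (exact p = 0.00781, 0.0352 adjusted). Across all plates the log2 fold change was -0.29 (SE 0.18, edgeR adjusted p = 0.199) and with the plate block -0.34 (SE 0.17, edgeR adjusted p = 0.101), neither past the threshold. Within plates 5 to 9 alone it was -0.67 (SE 0.19) and within plates 1, 2 and 4 alone 0.16 (SE 0.20). These 2 values are given without a test, since the plate sets were chosen after seeing the data. By total UMIs 48.8% of genes were called, 130 higher and 393 lower, the median of all genes fell from 0.01 to -0.34, and Cyr61 passed at -0.62 (SE 0.20, adjusted p = 0.0132). Relative to those medians its value changed little. Ctgf was at 0.83 (SE 0.44, adjusted p = 0.12) on that scale.

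**Figure D4:**
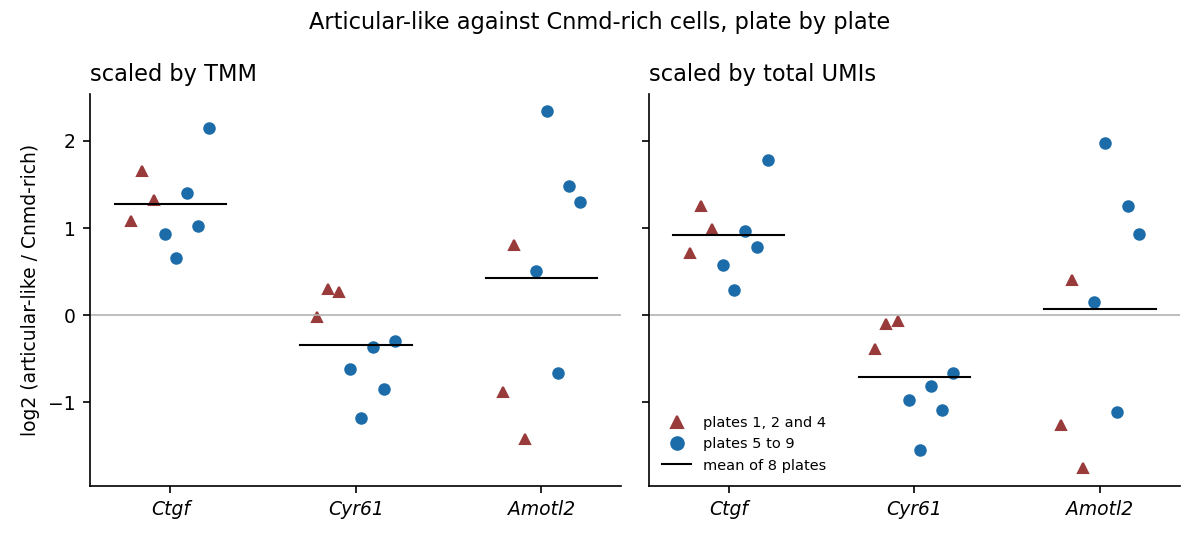
Log2 ratio of articular-like to Cnmd-rich cells for Ctgf, Cyr61 and Amotl2 (vertical axis), 1 point per Grem1 lineage plate, scaled by TMM (left) and by total UMIs (right); lines are means of 8 plates. Ctgf lies above 0 on every plate under both scalings, Cyr61 lies below 0 on plates 5 to 9 under both and on plates 1, 2 and 4 at -0.02 to 0.30 by TMM and below 0 by total UMIs, and Amotl2 scatters from -1.75 to 2.34.

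From high to low, mean Ctgf was thus ordered articular-like, Cnmd-rich and Lepr lineage, and mean Cyr61 Cnmd-rich, articular-like and Lepr lineage, the first pair of Cyr61 not differing past the threshold with TMM scaling. Amotl2 was too sparse for the filtered fit. Its mean log2 ratio was 0.43 ± 1.31 (SD, n = 8, exact p = 0.391) between the cell groups, higher in articular-like cells on 5 plates and lower on 3. Ajuba had 3 against 6 UMIs and Ankrd1 0 against 0.

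Of 4 YAP/TAZ targets tested between the cell groups, Ctgf and Cyr61 among them, 2 passed, where 41.0% of all genes did. Crim1 was higher in articular-like cells (438 ± 161 against 69.3 ± 36.9 TMM-scaled CPM, log2 fold change 2.58, SE 0.29, edgeR adjusted p = 5.27e-07) and Ccdc80 lower (-0.65, SE 0.21, adjusted p = 0.0192). The median of the 4 was 0.44, against 0.01 over all genes. The only Hippo component tested, the angiomotin Amotl1, did not pass (0.41, SE 0.24, adjusted p = 0.185). Of 6 actin and SRF target genes 4 passed (again beside 41.0% of all genes), of which 3 were higher, among them Fhl1, a LIM-domain protein (3.66, SE 0.28, adjusted p = 3.02e-09), and Actn4, an actinin (0.97, SE 0.19, adjusted p = 0.000519), while its paralogue Actn1 was lower (-1.82, SE 0.30, adjusted p = 6.22e-05). Of 6 immediate early genes only Fosb passed (41.0% over all genes), lower at -0.93 (SE 0.30, adjusted p = 0.0178), and Egr1 was at 0.72 (SE 0.30, adjusted p = 0.0639). With the plate as a replicate block Egr1 was higher (0.80, SE 0.13, edgeR adjusted p = 0.000155) and Atf3 lower as well (-0.53, SE 0.20, edgeR adjusted p = 0.0422), so that 3 of the 6 passed, beside 46.5% of all genes. Osteoblast markers summed to 142 to 32320 CPM, being highest in articular-like cells of plate 7. The sum of 4 fibroblast markers was 17040 to 23440 CPM in articular-like and 1520 to 3178 CPM in Cnmd-rich cells, and nearly all of it was Dcn. In articular-like cells Dcn had 10376 UMIs, Col3a1 64, Dpt 59 and Clec3b 0. In Cnmd-rich cells they had 1233, 7, 5 and 0. Dcn, the only 1 of the 4 tested, was higher in articular-like cells (log2 fold change 3.72, SE 0.17, edgeR adjusted p = 2.47e-12). The part of these markers in the Ctgf ratio was not tested.

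Actb share was then used within plates. Cells of each plate and cell group were divided at their median Actb share, Actb was removed, and the high-Actb and low-Actb sums were compared. In articular-like cells neither Ctgf nor Cyr61 passed the test. Ctgf had a log2 fold change of -0.04 (SE 0.45, edgeR adjusted p = 0.984, approximate 95% interval -0.93 to 0.85) and was the higher in high-Actb cells on 3 of 8 plates. With the plate block, which removes the spread between plates, the interval of Ctgf was -0.34 to 0.26. Cyr61 was at -0.02 (SE 0.22, edgeR adjusted p = 0.986) and was higher on 4 of 8 plates. Without plate in the model no gene of 390 passed by edgeR or by DESeq2 in these cells, and 25 had an unadjusted p under 0.05 by either tool. With the plate as a replicate block edgeR called 3 genes (0.769%), none of them a member.

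In Cnmd-rich cells Cyr61 was higher in high-Actb cells on 7 of 8 plates. Its TMM-scaled levels were 4596, 4024 and 7272 CPM in high-Actb against 4352, 3327 and 3082 CPM in low-Actb cells on plates 1, 2 and 4. On plates 5 to 9 they were 5405, 5784, 6254, 6054 and 5422 against 5640, 3363, 2523, 3627 and 3620 CPM. Only plate 5 was reversed, and the largest ratios were on plates 4 and 7. The log2 fold change was 0.60 (SE 0.16, edgeR adjusted p = 0.26), when 0 of 613 genes passed and 22 had an unadjusted p under 0.05. It passed with the plate as a replicate block (0.60, SE 0.14, edgeR adjusted p = 0.0429, one of 9 genes called, 1.47% of those tested) and in DESeq2 (0.61, SE 0.15, adjusted p = 0.0262, one of 3 genes called, 0.489%). The exact sign-flip p over plates was 0.0156 (0.0703 adjusted over 9 tests).

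Ctgf ratios in Cnmd-rich cells lay on opposite sides of 0 in the plate sets, which were noticed in Actb and Ctgf themselves. It was lower in high-Actb cells on plates 1, 2 and 4 (log2 ratios -0.96, -0.57 and -0.02) and higher on plates 5 to 9 (0.09 to 0.88). On plates 1, 2 and 4 these ratios rested on 39, 43 and 40 UMIs. The share of all genes whose ratios part in this way is not given here. Across plates Ctgf was at 0.34 (SE 0.52, edgeR adjusted p = 0.994, approximate 95% interval -0.67 to 1.35). With the plate as a replicate block it was at 0.19 (SE 0.17, edgeR adjusted p = 0.813, approximate 95% interval -0.14 to 0.52). The difference between the cell groups in the Cyr61 response, Cnmd-rich less articular-like, was 0.62 ± 0.60 on the log2 scale (SD, n = 8), above 0 on 7 of 8 plates, with an exact sign-flip p of 0.0312 and 0.0938 after adjustment over 3 members. It therefore did not pass. High-Actb cells were somewhat deeper, with the higher median UMI count on 6 of 8 plates in each cell group. Of the immediate early genes Btg2 passed with the plate block in Cnmd-rich cells (0.76, SE 0.11, edgeR adjusted p = 0.00229) and in articular-like cells (0.81, SE 0.15, edgeR adjusted p = 0.00932), and its part in the Cyr61 difference was not tested.

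**Figure D5:**
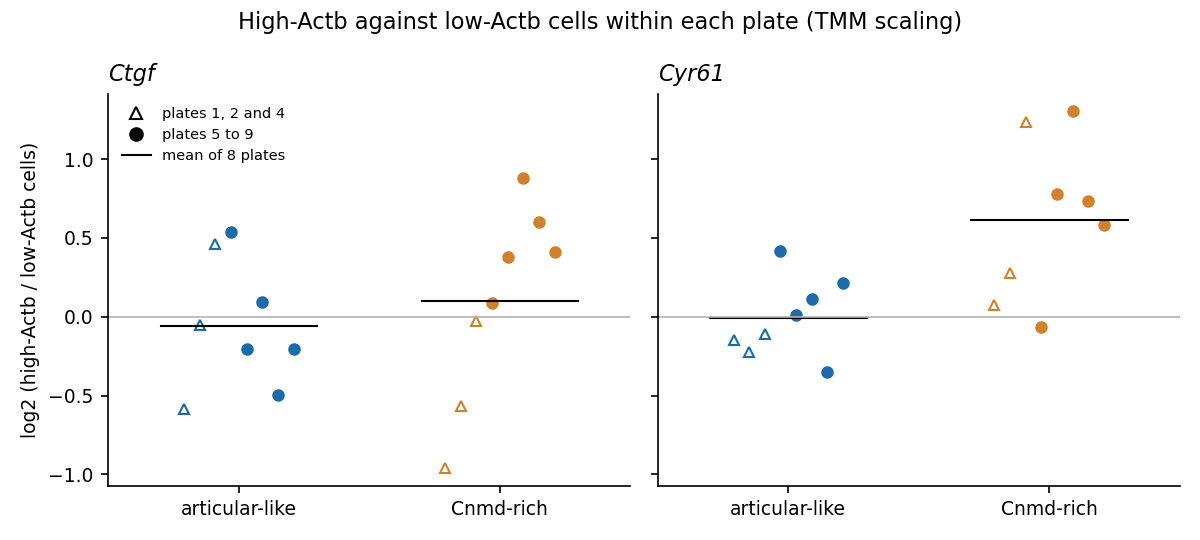
Log2 ratio of high-Actb to low-Actb cells of the same plate for Ctgf (left) and Cyr61 (right), TMM-scaled, 1 point per plate in articular-like and Cnmd-rich cells; lines are means of 8 plates. Articular-like points scatter around 0, Cyr61 of Cnmd-rich cells lies above 0 on 7 of 8 plates, and Ctgf of Cnmd-rich cells is below 0 on plates 1, 2 and 4 and above it on plates 5 to 9.

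Joint detection of members in the same cells was compared with what their shares within plates gave. Each articular-like and Cnmd-rich cell was thinned to 796 UMIs, which left 354 and 262 cells. Ctgf and Cyr61 were found together in 163 articular-like cells, where 159 followed from their shares, and in 122 Cnmd-rich cells, where 118 did. The mean log odds ratio over plates was 0.27 ± 0.74 (SD, n = 8, exact sign-flip p = 0.328, 0.552 adjusted over 4 pairs) in articular-like and 0.44 ± 1.44 (SD, n = 8, exact p = 0.414, 0.552 adjusted) in Cnmd-rich cells. Ctgf and Amotl2 were found together in 17 articular-like cells, with 15.9 from their shares (0.13 ± 1.40, SD, n = 8, exact p = 0.844). Cyr61 and Amotl2 were found together in 10 cells, with 13.1 from their shares, at a log odds ratio of -0.84 ± 0.43 (SD, n = 8, exact p = 0.00781, 0.0312 adjusted). That value rested on 20 Amotl2 cells, with fewer than 3 on 4 plates and 0 on 2, where the 0.5 added to each count gives a ratio below 0 by construction. Without thinning, 27 cells held both, with 28.0 from their shares, and the log odds ratio was -0.21 (exact p = 0.406).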

How the data were processed

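Transcripts of single cells sorted into 96-well plates were counted by UMI. The authors deposited raw counts per gene and cell, which are not normalised. Per the labels the counts were made with UMI-tools, STAR, featureCounts and SAMtools on the mm10 build. The study's methods name Cell Ranger on mm10 for single cell data in general and say that cells of several individual samples were grouped, whereas the labels of these plates name the tools above. Versions of those tools, the annotation and the use of strand are not given in the sources used here. The Grem1 lineage table ended in 1 incomplete gene row, which was left out, and its 29183 complete rows were matched to the Lepr lineage table. Levels in both lineages are relative to these rows.

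Cells with fewer than 350 detected genes, counted among the genes listed for their lineage, were left out (84 Grem1 lineage and 2 Lepr lineage wells). Doublets were not called, as single cells were sorted into wells. Counts were summed by plate and cell group (at least 10 cells). Sums were tested in R 4.3.3 with edgeR 4.0.16 (TMM scaling, low counts filtered, quasi-likelihood test, Benjamini-Hochberg threshold 0.05). Standard errors were taken from the fold change and its F statistic and are approximate, as are the 95% intervals made from them. DESeq2 1.42.0 was the alternative tool. The genes that split the cells were kept in the totals and not tested between the cell groups. Exact permutation tests over plates used Python 3.11.15 and scipy 1.17.1. Log2 ratios of plates had 0.5 UMI added to both sums. The fits were tested on simulated counts before use.

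The main fits left plate out. For the cell groups, which share a plate and its library, deviations of same-numbered sums correlated on all 8 plates (r from 0.19 to 0.45, mean 0.30, against -0.04 for different plates), so the fit with plate as a replicate block was given beside the main one where it changed a call. Plate numbers 1 and 2 of the lineages share only a number (r = 0.06).

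The members, the gene lists and the plate sets were chosen with earlier results of these data known. Named genes were the 5 members, the genes of each list past the threshold with the 3 largest changes, and the 3 genes most like each member with at least 100 Grem1 lineage UMIs among genes of at least 50 CPM on average (log2 CPM with a prior count of 2). F3, the Hippo and actin genes that did not pass, and the Lepr lineage genes without a test were named after their values were seen. Fits within plates 1, 2 and 4 and within plates 5 to 9, scaling by total UMIs, the fit without Actb and the fit without cells of fewer than 5 splitting UMIs were chosen after seeing the data.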

Additional observations from a re-analysis of the deposited data

Results flagged for a closer look

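Amotl2 in articular-like cells was far from the other plates on plate 6, at 385 TMM-scaled CPM against 18.1 to 144 on the other 7 (16 UMIs, in 13 of 43 cells). Of 17 sets of 8 plate values checked in this way it was the only one to stand out, and chance alone marks about 1 set in 20. Cnmd-rich cells of the same plate were at 73.3 TMM-scaled CPM.

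The Cyr61 difference between high-Actb and low-Actb cells was larger in Cnmd-rich than in articular-like cells by 0.62 on the log2 scale (exact sign-flip p = 0.0312 over 8 plates), which did not pass after adjustment over 3 members (0.0938).

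The 84 Grem1 lineage wells left out for few detected genes also held members, with 167 UMIs of Ctgf, 95 of Cyr61 and 4 of Amotl2. At a median of 502 UMIs per well, Ctgf was found in 51.2% and Cyr61 in 54.8% of them (exact 95% intervals 40.04 to 62.3 and 43.5 to 65.7), against 5.63% and 26.9% of Lepr lineage cells at a median of 505 UMIs.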

How the results depend on the processing

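The direction and call of Ctgf and Cyr61 between lineages held under every alternative run, those that left 1 Lepr lineage plate assuming that it varied like the other lineage's plates. Genes called fell from 851 to 436 with plates 1 and 2 of each lineage and the replicate block (451 without it) and ranged from 529 to 849 when a plate was left out, the lowest without Lepr lineage plate 2. Between the cell groups, 439 genes were called, 704 without the filter on low counts and 235 on plates 1, 2 and 4 alone, where Cyr61 turned from -0.29 to 0.16. Leaving out a plate gave 379 to 435. Ctgf passed there with the block (1.27), in DESeq2 (adjusted p = 0.0372), without the filter and without plate 1 (adjusted p = 0.0391), and its adjusted p reached 0.146 without plate 9. In articular-like cells by Actb share, where no gene was called, 26 were without the filter, 3 with the replicate block and 1 on plates 1, 2 and 4 alone, and 0 when any plate was left out. Values near 0 changed sign there: Ctgf from -0.04 to 0.07 with scaling by total UMIs, 0.03 with no minimum of detected genes, 0.05 on plates 1, 2 and 4 and 0.13 between the outer terciles of Actb share (-0.19 to 0.08 leaving out a plate), and Cyr61 from -0.02 to 0.07, 0.01, 0.09 on plates 5 to 9 and 0.15 between terciles (-0.08 to 0.02). In Cnmd-rich cells, also with no gene called (0 leaving out any plate), 24 were called without the filter, 9 with the replicate block and 3 in DESeq2, and Ctgf turned from 0.34 to -0.49 on plates 1, 2 and 4. Joint detection without thinning turned Ctgf and Cyr61 in articular-like cells to -0.24 and lost the call for Cyr61 and Amotl2 (-0.21). Leaving out a plate, the log odds ratios ranged from 0.14 to 0.47 and 0.19 to 0.69 for Ctgf and Cyr61 in articular-like and Cnmd-rich cells, -0.065 to 0.57 for Ctgf and Amotl2, and -0.91 to -0.75 for Cyr61 and Amotl2. The causes were not tested. The relation to Actb share over all Grem1 lineage cells was not given, for the same separate ranges of plates. Amotl2, Ajuba and Ankrd1 had too few UMIs for the filtered fits between the cell groups.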
